A study of Homo sapiens with 42 samples.

Results

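PRPF40B and FMNL3 are neighbouring human genes on opposite strands of chromosome 12 whose 3′ ends run into each other. The splicing events described here are all those that the deposited tables list under either symbol, 54 of 168483 listed events, with 18 under PRPF40B and 36 under FMNL3. They fall on 20 distinct intervals. The genes were picked with earlier results of these data in view, and in 6 of the 8 tables every p-value listed is under 0.05 (the 3 INA-6 ones also hold events that have none), so the values of those 6 tables are given as a description with no test.

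The libraries are strand-specific mRNA libraries of MM.1S and INA-6, which are established cell lines from multiple myeloma, a cancer of plasma cells. The 42 libraries make 14 groups of 3. MM.1S and INA-6 cells given interleukin-6 (IL-6), a growth factor of plasma cells, for 24 h were set against cells of the same line left without it for 24 h. Cas9-expressing MM.1S cells carrying a guide RNA that targets SRSF1, HNRNPL, POU2AF1 or ELL2, and Cas9-expressing INA-6 cells carrying one that targets POU2AF1 or ELL2, were set against cells of their line with a guide against EGFP (sgEGFP). All guide cells received their guide by lentivirus, were selected in puromycin for 2 days and were kept with IL-6, for 24 h in MM.1S and for a time not stated in INA-6. SRSF1 is a serine- and arginine-rich splicing activator, HNRNPL a heterogeneous nuclear ribonucleoprotein that binds CA-rich RNA, POU2AF1 a coactivator of octamer-binding factors in B cells, and ELL2 a factor of transcription elongation. The sgSRSF1 and sgHNRNPL groups share 1 sgEGFP group, as do the INA-6 sgPOU2AF1 and sgELL2 groups, while MM.1S sgPOU2AF1 and sgELL2 have sgEGFP groups of their own.

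PRPF40B is a human homologue of yeast Prp40, a protein of the U1 small nuclear ribonucleoprotein that helps to pair the ends of an intron early in spliceosome assembly. FMNL3 belongs to the formins, which nucleate and elongate actin filaments and shape cell protrusions. Where genes overlap on opposite strands, an intron of the one can lie wholly inside an exon of the other, and the strand of a read is then needed to assign it to either. Retained introns often carry stop codons in frame, and such transcripts may be held in the nucleus or degraded.

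Each table gives percent spliced in (PSI), the share of transcripts that keep the interval, from 0 to 100%, for every library. Differences are in points of PSI, IL-6 minus no IL-6 or targeting guide minus sgEGFP. Read counts are not listed, so the depth behind a PSI value is unknown and the spread between the 3 libraries is the only error given here. Some values recur exactly across libraries and intervals of the locus, such as 7.14, 7.69 and 9.52%, as ratios of small counts do. A level may thus rest on few reads, and the counting error was not tested. No label says whether the 3 libraries were grown as separate cultures, and a p-value here measures no more than the spread between them. The libraries were strand-specific, but the sources used here do not give whether the splicing caller used the strand, and reads of PRPF40B and of FMNL3 cannot be told apart within the shared region. The tables hold no expression levels, so neither the targeted genes nor the plasma-cell identity of the lines could be checked by their level. A bulk PSI also does not tell a change in all cells from a change in some of them.

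In GENCODE release 29 on GRCh38, PRPF40B (ENSG00000110844.13) lies on the plus strand at chr12:49568218-49644666 and FMNL3 (ENSG00000161791.13) on the minus strand at chr12:49636499-49708165. They overlap over 8168 nt, chr12:49636499-49644666. The whole overlap lies in the last exon of the long FMNL3 transcript, chr12:49636499-49645903, a single exon of 9405 nt of which 9319 nt follow the annotated coding sequence. A shorter FMNL3 transcript ends at position 49644953 and does not reach PRPF40B. Of the 25 introns of the PRPF40B coding transcript ENST00000548825.6, after which they are numbered here, the last 10, introns 16 to 25, lie inside that FMNL3 exon, and all 10 are listed in at least 1 table. Of the 15 introns outside it, 3 are listed, introns 4, 5 and 7. Of 32 annotated FMNL3 introns 1 is listed, chr12:49638521-49639002, which belongs to a processed transcript and lies within PRPF40B intron 18.

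**Figure D1:**
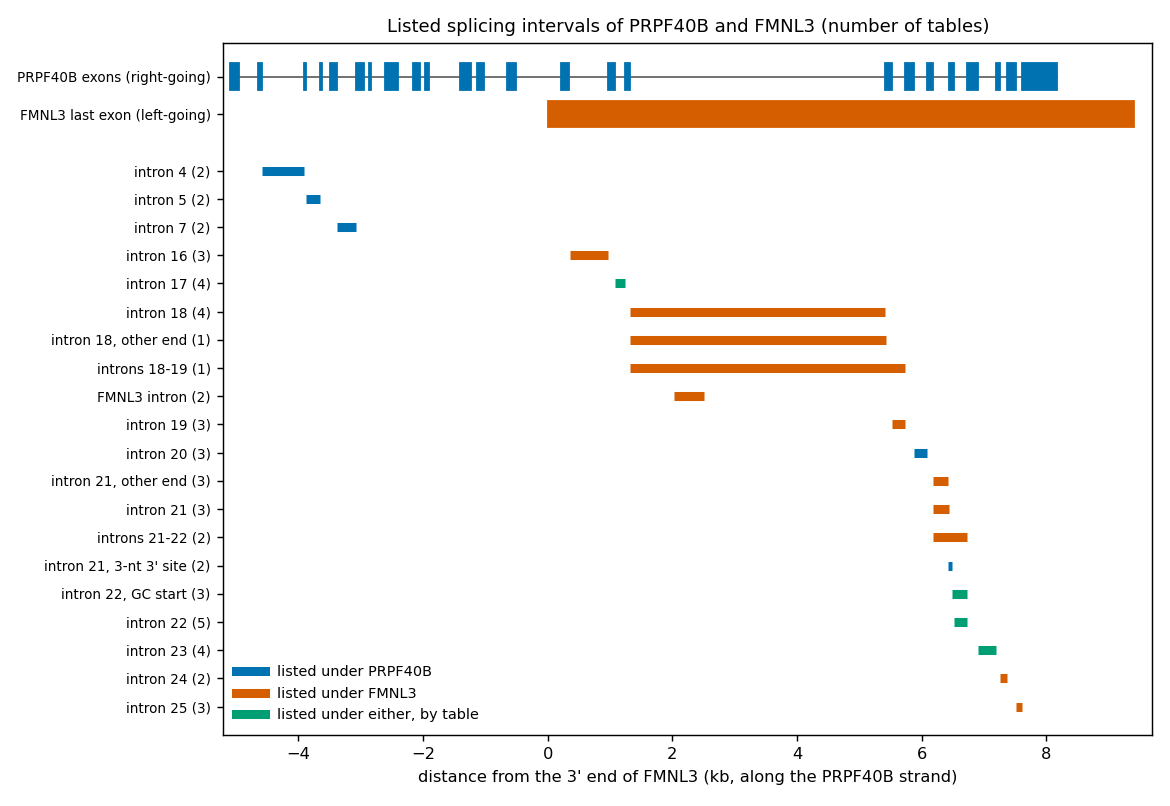
Positions of the 20 listed intervals (bars) below the PRPF40B exons and the FMNL3 last exon, in kb from the FMNL3 3′ end, with the number of tables that list each in brackets and the gene symbol used as colour. Of the 20 intervals 17 lie within the FMNL3 last exon, and 4 of them are listed under PRPF40B in some tables and under FMNL3 in others.

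The splice sites at the ends of these intervals show which strand each interval could be spliced on. The sequences are GENCODE release 29 transcript sequence on GRCh38, read 5′ to 3′ on the strand named, with the splice-site dinucleotide of the intron in capitals. The first group holds the ends of intron 22, chr12:49643017-49643222, of its longer form with an upstream 5′ site, chr12:49642979-49643222, and of intron 23, chr12:49643398-49643690. These are the intervals listed for IL-6 in INA-6, all on the plus strand.
Intron 22, 5′ site: caccctcaGTgagtaagcgtgt
Intron 22 longer form, 5′ site: caggaaagGCaagaagcaccat
Intron 22, both forms, 3′ site: atctgctgatctgcccAGggctct
Intron 23, 5′ site: tggagcagGTaagcagttgctg
Intron 23, 3′ site: ggatttttctatctctAGatcatg
The longer form of intron 22 opens with GC, a rarer but known 5′ splice-site dinucleotide, and is annotated only in a PRPF40B transcript marked for nonsense-mediated decay. The next group holds the ends of intron 25, chr12:49644005-49644099, and of intron 24, chr12:49643753-49643860, which were the intervals called in sgSRSF1 cells, again on the plus strand.
Intron 24, 5′ site: acaagtcgGTgagtgaaggaac
Intron 24, 3′ site: ggctctggactcttacAGaatagt
Intron 25, 5′ site: aggagaagGTgaggggcagggg
Intron 25, 3′ site: gtgcctttgctccaacAGacaggc
The last group sets the neighbouring 3′ sites of intron 21, which end 3 nt apart on the plus strand, beside the ends of the FMNL3 intron on the minus strand.
Intron 21, upstream 3′ site: ttcttcctctgcctctAGcagact
Intron 21, downstream 3′ site: ttcctctgcctctagcAGactgaa
FMNL3 intron, 5′ site: acctaatgGTaagtaatttaaa
FMNL3 intron, 3′ site: actatttctcttctccAGtagaag

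Of the 16 retained intervals inside the FMNL3 exon, 14 open with GT and close with AG on the PRPF40B strand and therefore read CT and AC on the FMNL3 strand, and the longer form of intron 22 opens with GC and closes with AG. The remaining interval, the FMNL3 intron, has GT and AG on the FMNL3 strand. In all, 15 of the 16 start and end at annotated PRPF40B intron ends. Of these 16 intervals 11 were listed under FMNL3 alone, the FMNL3 intron among them, 4 under either gene and 1, intron 20, under PRPF40B alone. No table listed 1 interval under both symbols. In the frame of the annotated coding transcripts, 8 of the 10 introns inside the exon hold a stop codon, and introns 17 and 25 hold none. The lengths of introns 17 and 25, 148 and 95 nt, are not multiples of 3, so keeping either would shift the frame after it.

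IL-6 went with lower PSI at every interval of the locus that the IL-6 tables list, in both cell lines. A call required a p-value under 0.05 in the authors' deposited table, where it is unadjusted whatever its heading, and a PSI difference of 10 points or more. In MM.1S all 6 listed intervals were called lower, where 9.12% of all listed events were called lower and 4.81% higher, shares that the choice of events by p helped to set. Among the listed retained introns of overlapping regions 7.84% were called lower. In INA-6 all 3 listed intervals were called lower, where 5.92% of the events with a p-value were called lower and 6.3% higher, and 4.13% of the retained introns of overlapping regions were called lower. The median difference over the listed intervals was -14.9 points in MM.1S and -29.8 points in INA-6, against -0.30 and 0 points over all listed events. The 6 MM.1S intervals make up only 3 stretches that do not overlap, and the 3 INA-6 intervals 2. In the tables of selected events the choice by p also favours groups whose libraries stay apart. The share of all their events that do so was not computed.

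At intron 22, listed under FMNL3 in MM.1S, PSI was 0, 0 and 9.52% in the 3 MM.1S libraries with IL-6, against 21.9, 23.5 and 25.6% without IL-6. The libraries did not overlap, and 2 of the 3 with IL-6 were at 0. Mean PSI was 3.17% ± 5.5 with IL-6 and 23.7% ± 1.9 without (SD, n = 3 each), a difference of -20.5 points.

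In INA-6 the same interval is listed under PRPF40B and had 36, 43.8 and 30% with IL-6, against 65.8, 70 and 69.7% without IL-6. INA-6 libraries kept this interval more often than MM.1S libraries under either condition, and the groups did not overlap. Mean PSI was 36.6% ± 6.9 with IL-6 and 68.5% ± 2.3 without, a difference of -31.9 points.

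The longer form of intron 22, which contains intron 22 and shares its 3′ site, followed it closely and so is not a separate observation. It had 7.69, 0 and 9.52% in MM.1S with IL-6, against 28.6, 21.2 and 23.7% without, and is listed under PRPF40B. In INA-6 it had 36, 40 and 41.7% with IL-6, against 63.9, 71.9 and 71.4% without, again under PRPF40B. In both lines every library with IL-6 was below every library without.

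Intron 23 is listed for IL-6 in INA-6 only, under PRPF40B, with 45, 27.8 and 35.3% with IL-6, against 60.6, 60.7 and 57.1% without IL-6. The libraries with IL-6 spread over more than 15 points but all lay below those without. Intron 17 is listed in MM.1S only, under PRPF40B, with 17.6, 18.8 and 20% with IL-6, against 32.4, 31.8 and 32.3% without, the least spread among the intervals of that table. An interval missing from a table of selected events may have been unchanged, variable or not measured.

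The other MM.1S intervals are listed under FMNL3. Intron 18 had 0, 7.14 and 0% with IL-6, against 10.7, 14.8 and 15.4% without. The interval over introns 18 and 19 spans the exon between them, which is annotated in a longer and a shorter form. It had 0, 9.52 and 0% with IL-6, against 16.7, 20.7 and 21.4% without. In the library with a value above 0 at intron 18 this interval was also above 0. The interval over introns 21 and 22 had 11.1, 5.88 and 11.1% with IL-6, against 24.2, 23.5 and 19.4% without, so here too the groups did not overlap.

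**Figure D2:**
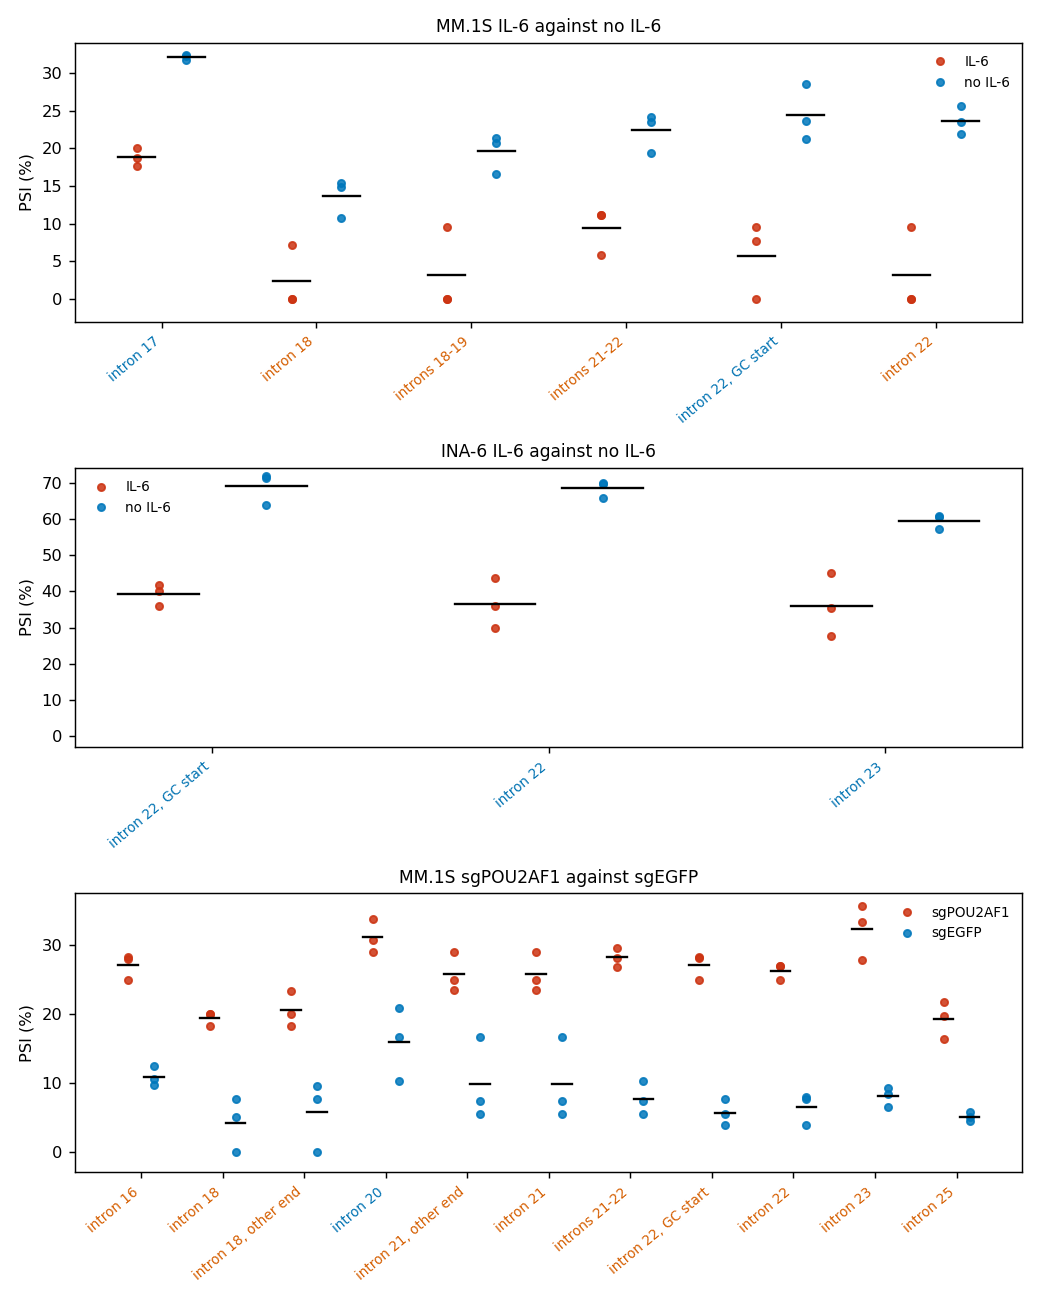
PSI (%) of each library (points) and group mean (line) at the intervals listed for IL-6 in MM.1S, IL-6 in INA-6 and sgPOU2AF1 in MM.1S, from left to right along PRPF40B, with the label coloured blue where listed under PRPF40B and orange under FMNL3. Libraries with IL-6 lie below those without at every interval, and sgPOU2AF1 libraries lie above sgEGFP libraries at every interval. The choice of events by p favours groups that stay apart, and the share over all listed events was not computed.

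The guide against POU2AF1 went with higher PSI over most of the shared region in MM.1S. All 11 listed intervals were called higher, where 5.66% of all listed events were called higher and 4.58% lower, and 8.07% of the listed retained introns of overlapping regions were called higher. Their median difference was 16.0 points, from 14.2 to 24.3, against 0.62 points over all listed events. The 11 intervals make up 7 stretches that do not overlap, and 10 are listed under FMNL3 and 1 under PRPF40B. Intron 21 is listed with both its 3′ ends, and the values of both rows are identical.

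Intron 23 had the largest difference and is listed under FMNL3. Its PSI was 33.3, 27.9 and 35.7% in sgPOU2AF1 cells, against 6.52, 8.33 and 9.3% in sgEGFP cells, with means of 32.3% ± 4.0 and 8.05% ± 1.4. Intron 22 had 27, 25 and 26.9% in sgPOU2AF1 cells, against 3.85, 7.69 and 7.89% in sgEGFP cells, and its longer form had 28.1, 25 and 28.3%, against 3.85, 7.69 and 5.41%. All sgPOU2AF1 libraries were above all sgEGFP libraries at these 3 intervals.

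The interval over introns 21 and 22 had 28.1, 26.9 and 29.6% in sgPOU2AF1 cells, against 10.3, 5.41 and 7.32% in sgEGFP cells. Intron 20, the interval listed under PRPF40B, had 29, 33.8 and 30.8% in sgPOU2AF1 cells, against 10.3, 16.7 and 20.8% in sgEGFP cells. The sgEGFP libraries were less even at intron 20 than at intron 23, though the groups stayed apart. Intron 21 had 29, 23.4 and 25% in sgPOU2AF1 cells, against 16.7, 5.41 and 7.32% in sgEGFP cells.

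At the start of the shared region, intron 16 had 28.3, 28 and 25% in sgPOU2AF1 cells, against 9.68, 12.5 and 10.5% in sgEGFP cells. Intron 18 had 20, 18.2 and 20%, against 5, 7.69 and 0%, and its form with a later 3′ end had 20, 18.2 and 23.4%, against 9.52, 7.69 and 0%. Intron 25, the last intron of PRPF40B, had 16.4, 19.7 and 21.7% in sgPOU2AF1 cells, against 4.44, 5 and 5.71% in sgEGFP cells. The difference was thus present from the first to the last of the 10 PRPF40B introns inside the FMNL3 exon, with introns 17, 19 and 24 not listed.

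Both comparisons have groups of their own, with no library in common, and 4 intervals are listed in both. At introns 18 and 22, the longer form of intron 22 and the interval over introns 21 and 22, PSI was lower in MM.1S cells with IL-6 than without, and higher in MM.1S sgPOU2AF1 cells than in sgEGFP cells, which had IL-6 as well. The mean of intron 22 was 26.3% ± 1.1 in sgPOU2AF1 cells with IL-6 and 23.7% ± 1.9 in cells without IL-6, and these libraries overlapped. It was 6.48% ± 2.3 in the sgEGFP cells and 3.17% ± 5.5 in unmodified cells with IL-6, which overlapped as well. These levels come from separate tables and were not tested against each other.

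In INA-6 the guide against POU2AF1 is represented by 1 event, the FMNL3 intron on the minus strand. It had 8.96, 8 and 4.62% in sgPOU2AF1 cells, against 13.8, 19.2 and 14.3% in sgEGFP cells. All sgPOU2AF1 libraries were lower, but the difference of -8.58 points was under the 10 points needed for a call, and 4.82% of the events with a p-value were called lower. None of the intervals that were higher in MM.1S sgPOU2AF1 cells is listed for INA-6, so the response of the cell lines to this guide could not be compared at the locus.

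The guide against ELL2 is represented by 1 event in each line, at different introns. In MM.1S intron 19, listed under FMNL3, had 14.7, 20.8 and 17.2% in sgELL2 cells, against 8, 11.8 and 11.8% in sgEGFP cells. The difference of 7.08 points was below the size needed for a call, and 5.28% of listed events were called higher. In INA-6 intron 17, also under FMNL3, had 8.33, 7.89 and 11.9% in sgELL2 cells, against 26.5, 19.2 and 18.9% in sgEGFP cells. It was called lower, by -12.2 points, where 4.56% of the events with a p-value were called lower, and without the sgEGFP library at 26.5% the difference was -9.70 points.

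The tables for sgSRSF1 and sgHNRNPL list events whatever their p-value, so here the locus could be tested. Targeting SRSF1 went with higher mean PSI at 13 of 15 listed intervals and targeting HNRNPL at 13 of 16, while 46.8% and 52.6% of all events that differed at all were higher. Neighbouring introns share libraries and in part reads, and both comparisons share their sgEGFP libraries, so these counts are not separate observations. No interval passed limma's test on the log2-odds of PSI with Benjamini-Hochberg adjustment over all events, which called 4.11% of 50150 events for sgSRSF1 and 0.234% of 49622 events for sgHNRNPL at an adjusted p under 0.05 and at least 10 points. At an unadjusted limma p under 0.05 there were 3 of 15 intervals for sgSRSF1, where 23.6% of all events passed it, and 6 of 16 for sgHNRNPL, where 11.1% did. Without any 1 library the sgHNRNPL count was 1 to 5. By the deposited p-value 2 of 15 were called for sgSRSF1, both higher, where 1.84% of all events were called higher and 3.91% lower, and 0 of 16 for sgHNRNPL, where 1.12% of all events were called higher and 0.686% lower. The libraries of the compared groups did not overlap at 3 of 15 intervals for sgSRSF1, against 28.9% of all events, and at 6 of 16 for sgHNRNPL, against 16.6%.

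The intervals called for sgSRSF1 were introns 24 and 25, both listed under FMNL3. Intron 25 had 25, 40.6 and 42.9% in sgSRSF1 cells, against 9.38, 18.8 and 4.88% in sgEGFP cells. The lowest sgSRSF1 library lay above the highest sgEGFP library. The difference was 25.2 points, or 2.38 ± 0.63 (SE) in log2-odds, with a limma adjusted p of 0.0865. Intron 24 had 33.3, 26.1 and 37.5% in sgSRSF1 cells, against 5.41, 18.2 and 10.6% in sgEGFP cells, a difference of 20.9 points, or 2.04 ± 0.54 in log2-odds, with a limma adjusted p of 0.0831. Neither adjusted p passed 0.05.

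In sgHNRNPL cells the same sgEGFP libraries stood against other values at these introns. Intron 25 had 31.6, 20.4 and 24% in sgHNRNPL cells, again above all 3 sgEGFP libraries, with a difference of 14.3 points, 1.64 ± 0.59 in log2-odds and a limma adjusted p of 0.396. Intron 24 had 18.9, 6 and 2.94% in sgHNRNPL cells, a spread that covered the whole sgEGFP range, with a difference of -2.14 points. The 95% interval of that difference reached from -2.78 to 1.62 in log2-odds, so changes of either sign were compatible with these libraries.

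Intron 16 was the interval with the lowest limma adjusted p for sgHNRNPL. It had 17, 18.2 and 14.7% in sgHNRNPL cells, against 8.33, 11.1 and 7.41% in sgEGFP cells, a difference of 7.69 points, 1.04 ± 0.24 in log2-odds, with a limma adjusted p of 0.209. In sgSRSF1 cells it had 15.4, 25 and 13%, a difference of 8.86 points, with a limma adjusted p of 0.142. In both comparisons all targeted libraries were above the sgEGFP libraries, by less than the 10 points needed for a call.

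Intron 18 and intron 21 were also apart in sgHNRNPL cells. Intron 18 had 16.7, 14.3 and 9.52% in sgHNRNPL cells, against 9.09, 7.14 and 6.38% in sgEGFP cells. Intron 21, with identical values for both its 3′ ends, had 17.4, 13.7 and 21.4%, against 9.68, 12.9 and 8.11%. In sgSRSF1 cells these introns had 20, 5 and 23.1% and 9.09, 37.5 and 23.1%, which overlapped the sgEGFP libraries. The limma adjusted p of intron 18 was 0.481 for sgSRSF1, and 0.0469 with a call without the sgSRSF1 library at 5%. Intron 20 overlapped in both comparisons, with 13, 30 and 41.9% in sgSRSF1 cells and 10.9, 27.9 and 23.3% in sgHNRNPL cells, against 15.2, 15.6 and 19.6% in sgEGFP cells.

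Intron 22, lower with IL-6 in both lines, differed little in these cells. It had 11.1, 11.8 and 25.9% in sgSRSF1 cells and 12.1, 9.8 and 6.98% in sgHNRNPL cells, against 6.45, 14.3 and 12.9% in sgEGFP cells. The sgSRSF1 difference of 5.05 points rested on 1 library and was 0.224 points without it. The limma intervals reached from -0.78 to 1.96 in log2-odds for sgSRSF1 and from -1.27 to 0.86 for sgHNRNPL.

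Intron 23 had 15, 40 and 45.5% in sgSRSF1 cells and 23.9, 14.6 and 20% in sgHNRNPL cells, against 24.2, 4 and 4.17% in sgEGFP cells. The sgEGFP group holds 1 high library, and the sgSRSF1 group 1 low library, so that both comparisons overlapped. The sgSRSF1 difference was 22.7 points with a limma adjusted p of 0.227, and the sgHNRNPL difference of 8.71 points was 15.4 points without the high sgEGFP library. The place in the table that holds the low sgSRSF1 value here held the lowest value of its group at 9 of 15 intervals, with a median PSI of 13.0% over the intervals, against 26.1 and 23.1% in the others. Without the library in that place no interval was called by limma, and 8 of 15 intervals had an unadjusted p under 0.05, where 21.4% of all events did. The 8 include both rows of intron 21. The place was singled out for its low values at these same intervals, so leaving it out favours a high count here, and no conclusion is drawn from it. The part of this library in the results was not tested further, since the tables hold no depth.

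**Figure D3:**
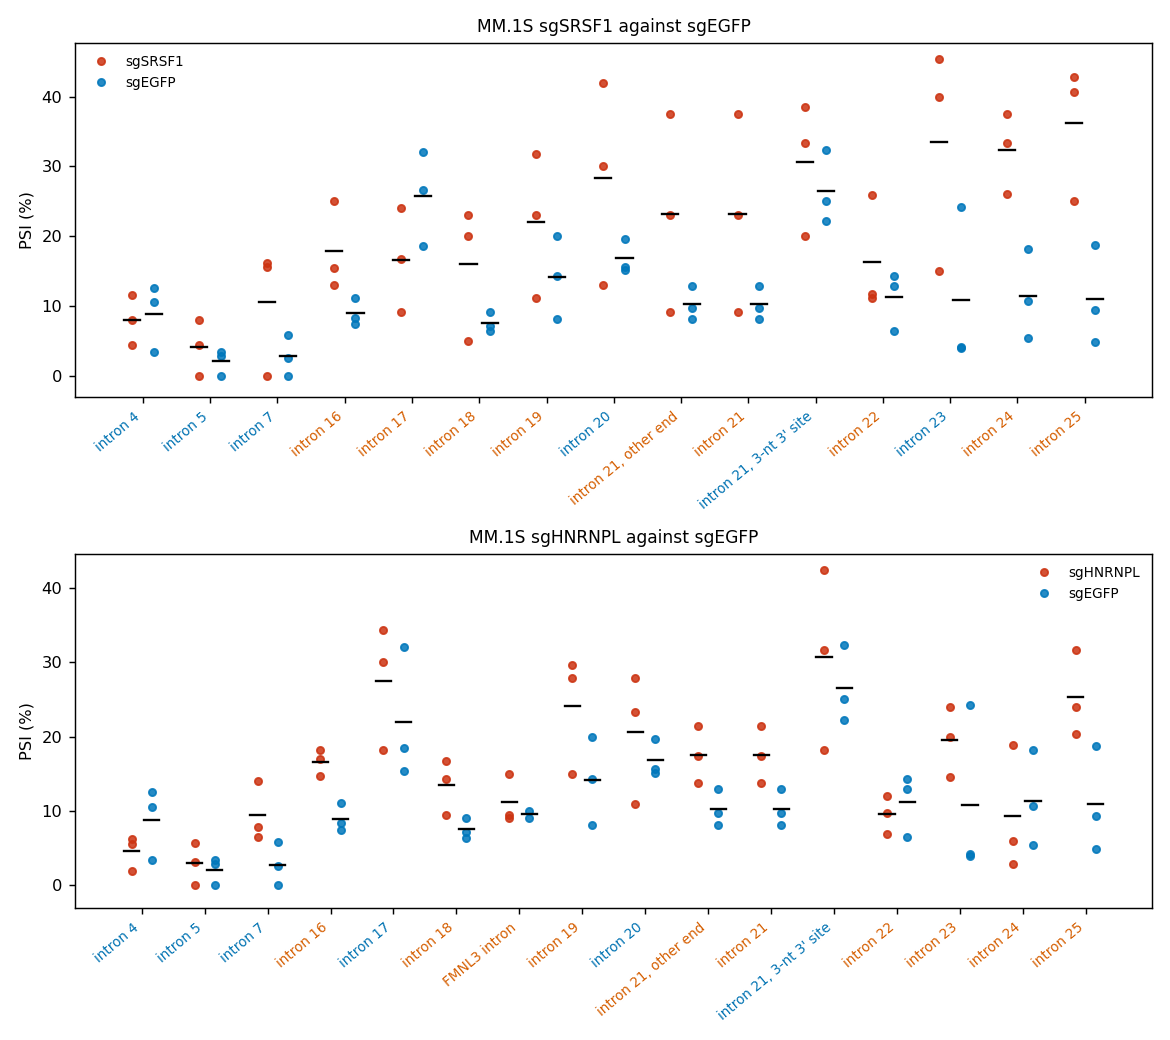
PSI (%) of each library (points) and group mean (line) at the intervals listed for sgSRSF1 (15) and sgHNRNPL (16), each left of the sgEGFP libraries that both share, with labels coloured as in the plot of the IL-6 and sgPOU2AF1 tables. The sgEGFP and targeted libraries overlap at most intervals, and introns 16 and 25 are above sgEGFP in every targeted library of both comparisons.

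Introns 4, 5 and 7, which lie outside the FMNL3 exon and are listed under PRPF40B alone, were at the low end of the levels at the locus, with means that overlapped those of the intervals inside it in sgHNRNPL and sgEGFP cells. Their means were 7.96, 4.12 and 10.6% in sgSRSF1 cells and 4.60, 2.96 and 9.47% in sgHNRNPL cells, against 8.82, 2.10 and 2.82% in sgEGFP cells. The sgEGFP means of the retained intervals inside the exon ranged from 7.54 to 25.7% in the sgSRSF1 table. Over all 4067 retained introns that the tables mark as lying in overlapping regions, the median sgEGFP level was 2.37%, and it was 1.46% over 10763 other retained introns. At intron 7 all 3 sgHNRNPL libraries, with 6.56, 7.81 and 14%, were above the sgEGFP libraries with 5.88, 0 and 2.56%, with a limma adjusted p of 0.418. In sgEGFP cells intron 4 was above intron 18 (7.54%), which lies inside the exon, and the levels inside and outside the exon were not tested against each other.

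The FMNL3 intron is the only listed interval with splice sites on the FMNL3 strand. It had 9.09, 15 and 9.52% in sgHNRNPL cells, against 9.09 and 10% in the 2 sgEGFP libraries with a value, a difference of 1.66 points with a limma adjusted p of 0.837. Its mean was 11.2% in sgHNRNPL cells and 9.55% in sgEGFP cells, beside 13.5% and 7.54% for intron 18, which contains it on the other strand. In sgSRSF1 cells only intron 18 is listed.

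The 3-nt alternative 3′ site of intron 21, listed under PRPF40B, adds 1 codon and was the only event of the locus that is not a retained intron. PSI was 20, 38.5 and 33.3% in sgSRSF1 cells and 31.6, 18.2 and 42.4% in sgHNRNPL cells, against 25, 22.2 and 32.4% in sgEGFP cells. The groups overlapped in both comparisons, with limma adjusted p-values of 0.746 and 0.881. The differences were 4.07 and 4.20 points.

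The remaining intervals overlapped between groups in both comparisons. Intron 17 had 24, 16.7 and 9.09% in sgSRSF1 cells, against 18.5, 32 and 26.7% in sgEGFP cells, and 30, 18.2 and 34.3% in sgHNRNPL cells, against 18.5, 32 and 15.4% in sgEGFP cells. The sgEGFP values of this intron differ between the tables although the libraries are the same. Intron 19 had 11.1, 31.8 and 23.1% in sgSRSF1 cells and 27.9, 15 and 29.6% in sgHNRNPL cells, against 14.3, 20 and 8.16% in sgEGFP cells. The differences of introns 17 and 19 had limma adjusted p-values of 0.370 and 0.542 for sgSRSF1 and 0.776 and 0.565 for sgHNRNPL.

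Intron 17 shows how the gene symbol and the value can go together. It is listed under FMNL3 in the sgSRSF1 table and under PRPF40B in the sgHNRNPL table, and 1 of its 3 sgEGFP values differs between them, 26.7 against 15.4%. Intron 23 is listed under PRPF40B in the sgSRSF1 table and under FMNL3 in the sgHNRNPL table, with identical sgEGFP values. Over the whole of both tables, 123 of the retained introns listed in both carry different symbols and 15666 the same symbol. All 3 sgEGFP values matched in 8.13% of the 123, against 94.9% of the others, and the median difference of the sgEGFP mean was 2.36 against 0 points.

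Where a table lists overlapping retained introns under genes of opposite strands, their levels can be set side by side. At PRPF40B and FMNL3 this holds for 2 pairs, both in the MM.1S IL-6 table and both with the longer form of intron 22 under PRPF40B. Against intron 22 under FMNL3 the means were 5.74 and 3.17% with IL-6 and 24.5 and 23.7% without IL-6. Against the interval over introns 21 and 22 under FMNL3 the means were 5.74 and 9.37% with IL-6 and 24.5 and 22.4% without. The members of a pair thus differed by 0.81 to 3.63 points. Both pairs are of opposite strands by symbol only. Their intervals all start and end at PRPF40B intron ends, overlap and share the 3′ site of intron 22, so their closeness does not compare the strands. With both rows under 1 gene, intron 22 and the interval over introns 21 and 22, both under FMNL3 in the MM.1S IL-6 table, differed by 6.19 points with IL-6 and 1.28 points without. In INA-6 the forms of intron 22, both under PRPF40B, differed by 2.64 points with IL-6 and 0.57 points without, and in MM.1S sgPOU2AF1 and sgEGFP cells, both under FMNL3, by 0.84 and 0.83 points. These differences were not tested against each other.

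In all, 196 pairs of retained introns under genes of opposite strands overlapped within 1 of the 8 tables by at least 50% of the shorter interval. Their levels in the cells without IL-6 or with sgEGFP differed by a median of 2.07 points, and 62.8% of pairs differed by at most 5 points. The median was 0.20 points over 22433 overlapping pairs within a gene, of which 93.2% differed by at most 5 points. Pearson's r of the levels across pairs was 0.49 for opposite strands and 0.88 within a gene, as a description in which pairs share libraries and in part intervals. The strand of each interval was taken from its symbol, not from its splice sites.

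Set in order of mean PSI over the tables, intron 22 was lowest in MM.1S cells with IL-6 (3.17% ± 5.5) and in the sgEGFP cells of the sgPOU2AF1 comparison (6.48% ± 2.3). It was followed by sgHNRNPL cells (9.62% ± 2.6), the sgEGFP cells of the sgSRSF1 and sgHNRNPL comparisons (11.2% ± 4.2), sgSRSF1 cells (16.3% ± 8.4), MM.1S cells without IL-6 (23.7% ± 1.9) and sgPOU2AF1 cells (26.3% ± 1.1). Each of these 7 MM.1S groups overlapped its neighbours in the order. The INA-6 groups stood apart above them, with 36.6% ± 6.9 with IL-6 and 68.5% ± 2.3 without (SD, n = 3 each). The symbol was FMNL3 in all MM.1S tables and PRPF40B in the INA-6 table. The longer form of intron 22, listed under PRPF40B in the IL-6 tables of both lines, had means of 5.74% in MM.1S and 39.2% in INA-6 with IL-6, and of 24.5% and 69.1% without IL-6, and the lines did not overlap under either condition.

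**Figure D4:**
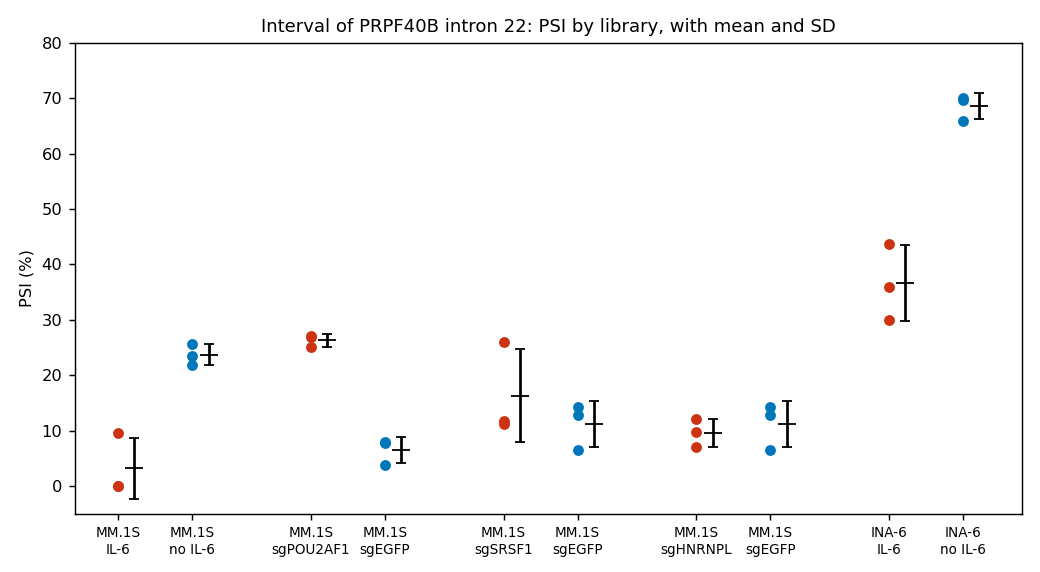
PSI (%) of intron 22 in every library (points) of the 5 tables that list it, with the group mean and SD beside them (n = 3). The sgEGFP group shared by sgSRSF1 and sgHNRNPL is drawn beside each, and INA-6 cells without IL-6 lie highest, between 65.8 and 70%.

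The events most like the longer form of intron 22 were sought among 178 events in 137 genes listed in the 3 tables that hold it, by Pearson's r of mean PSI over their 6 groups, leaving out PRPF40B and FMNL3. They were a retained intron of HNRNPC (r = 0.98), whose PSI was only 0.15 to 1.22%, and skipped exons of SH3BP1 (r = 0.96) and SNX22 (r = 0.95). The SNX22 exon had 14.6% with IL-6 and 38.4% without in MM.1S, 46.5% and 62.6% in INA-6, and 35.7% in sgPOU2AF1 and 28.6% in sgEGFP cells. With 6 groups from 2 cell lines, and events chosen by their p-values, these are descriptions.

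PRPF40B acts in the earliest steps of splicing, and 20 genes of U1 and of early intron recognition were followed beside it. All 20 had events in the complete tables. For sgSRSF1, limma called 6 of 146 tested events of the list higher and 1 lower, where 1.18% of all events were called higher and 2.93% lower. The median difference of the listed events was 0.06 points against 0 over all events. The called events included events in LUC7L (3, higher), a U1-associated protein gene, and in TIA1 (1, higher) and TIAL1 (1, lower), which encode RNA-binding proteins that aid U1 at weak 5′ sites. For sgHNRNPL limma called 0 of 143 events of the list, with 17 at an unadjusted limma p under 0.05, which 11.1% of all events passed. The deposited rule called 1 higher and 1 lower of 171, where 1.12% of all events were called higher and 0.686% lower.

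In the tables of selected events the calls of the same 20 genes stand beside the shares over all events with a p-value. For IL-6 the deposited rule called 0 higher and 2 lower of 23 listed events in MM.1S, in LUC7L and SF1, where 4.81% of all were called higher and 9.12% lower. In INA-6 it called 1 higher, in LUC7L3, of 20 events with a p-value, where 6.3% of all were called higher. For sgPOU2AF1 it called 1 higher of 36 in MM.1S, where 5.66% of all were, and 2 lower of 28 in INA-6, where 4.82% were. For sgELL2 it called 0 of 8 in MM.1S, where 5.28% of all were called higher. The sgELL2 count in INA-6 was 1 lower of 21, where 4.56% were called lower. SF1, the branch-point binding protein that Prp40 contacts in yeast, had an exon run at 75.4% ± 2.7 with IL-6 and 86.7% ± 3.8 without in MM.1S.

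Of 12 other formin genes followed beside FMNL3, 9 had events in the complete tables. For sgSRSF1, limma called 0 of 46 events higher and 2 lower, both in DIAPH3, an actin-nucleating formin, where 1.18% of all events were called higher and 2.93% lower. The deposited rule called 2 higher and 2 lower of 50, in DIAPH3 and INF2, where 1.84% of all events were called higher and 3.91% lower. A DIAPH3 exon had 35.9% ± 6.0 in sgSRSF1 cells and 65.8% ± 5.3 in sgEGFP cells, with a limma adjusted p of 0.0239. For sgHNRNPL limma called 0 of 48, with 11 at an unadjusted limma p under 0.05, against 11.1% of all events. The deposited rule called 0 of 52, where 1.12% of all events were called higher and 0.686% lower. In the tables of selected events, 1 formin event was called, an alternative 3′ site of DIAPH2 with 92.6% ± 3.6 with IL-6 and 79.3% ± 5.8 without in MM.1S, 1 of 3 formin events there, where 4.81% of all events were called higher. None of these called formin events was a retained intron, and retained introns among the uncalled formin events were not counted. Each FMNL3 event, called or not, was listed as a retained intron. Apart from the FMNL3 intron, these events start and end at PRPF40B intron ends, so the kinds of event are not compared between FMNL3 and other formins.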

How the data were processed

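Strand-specific mRNA libraries were aligned to GRCh38 with STAR 2.7.10b and handled with SAMtools 1.19.2, per the submitters' processing notes. The sources used here do not give the splicing caller, its annotation or its strand setting. The tables deposited by the authors hold PSI in percent for each of 3 libraries per group, the difference of mean PSI in points, and a p-value. That deposited p-value column is headed as a false discovery rate but equals the unadjusted Welch p recomputed from the listed PSI, within 1% in 100% of events, and was used as unadjusted. Of the tables, 6 list events with p under 0.05 and, for INA-6, further events with none. Value headers of the INA-6 guide tables say MM.1S. Their sgEGFP levels had r of 0.995 and 0.997 across events against INA-6 cells given IL-6, and 0.954 and 0.963 against MM.1S cells given it, so they were taken as INA-6. No depth is listed, so precision rests on the spread between libraries.

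The members and gene lists were chosen with earlier results of these data known. All rows under PRPF40B or FMNL3 were used, and all are accounted for. Every-library values were given for intervals called in any table or overlapping the opposite gene. Calls needed a deposited p under 0.05 and 10 points. In the complete tables limma 3.58.1 (R 4.3.3) was fitted to log2-odds of PSI clipped to 1 and 99% over all events, with Benjamini-Hochberg adjustment, after a check on simulated data. Coordinates are 1-based. Annotation and sequences are from GENCODE release 29. Strand was found for 5741 of 6025 symbols with retained introns. Other steps used Python 3.11.15, pandas 2.3.3, numpy 2.4.6 and matplotlib 3.10.9. Alternatives were other call sizes, clips, scales, adjustments and overlaps, complete values only, and leaving out each library. Some called events of the list of early splicing genes are counted but not reported individually here.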

Additional observations from a re-analysis of the deposited data

How the results depend on the processing

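No paired analysis was possible because the tables carry no replicate number for the libraries of a group. No read counts are listed, so what depth limits cannot be measured. With a call at 20 points, 1 of 6 intervals was called for IL-6 in MM.1S, 3 of 11 for sgPOU2AF1 in MM.1S and 0 of 1 for sgELL2 in INA-6, and over the 6 tables of selected events 7 of 23 in place of 21. With 5 points, the event of sgELL2 in MM.1S and that of sgPOU2AF1 in INA-6 were called (1 of 1 each), and 1 of 16 for sgHNRNPL. With 10 points and no p, 6 of 15 intervals were called for sgSRSF1 and 2 of 16 for sgHNRNPL. Requiring values in all 6 libraries changed none of these counts by over 1.5 times. The shares of all events under these other call rules were not computed, so the counts describe the intervals of this locus alone. Limma called 0 intervals in both complete tables under the other clip, scale, filter and adjustment. Leaving out each library, chosen after seeing the data, it called 0 to 1 for sgSRSF1, the 1 being intron 18 without the sgSRSF1 library that had 5% there, at an adjusted p of 0.0469 (0.442 to 0.727 for this intron under the other alternatives), and 0 for sgHNRNPL. The sgSRSF1 difference at intron 22 was -1.14 points with medians in place of means, and the cause was not tested. All 23 called differences kept their sign without any 1 library, and 1 fell under 10 points. Any overlap of 1 base gave 205 opposite-strand pairs and a median of 2.54 points. No pair had the same start and end, so that alternative gave no value.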
